A study of Caenorhabditis elegans with 9 samples.

Results

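The genes described here are the Hedgehog-related and patched-related families of the nematode *Caenorhabditis elegans*: the groundhog (*grd*), ground-like (*grl*), warthog (*wrt*), patched-related (*ptr*) and patched (*ptc*) genes. Members were all genes whose platform symbol begins with 1 of these family names followed by a number, taken from probe sets that carry a single symbol. This gave 93 probe sets for 78 genes, of 17118 genes so named by 20766 probe sets: 12 *grd*, 30 *grl*, 10 *wrt*, 24 *ptr* and 2 *ptc* genes. The probe set with the highest mean over all arrays stood for a gene, and 2 further probe sets that name several genes were left out. Worms lived in mCeHR-2, a liquid culture medium free of bacteria, supplied with 4, 20 or 500 uM hemin, an iron porphyrin that serves as their source of heme, and were collected late in the last larval stage (L4). Each concentration had 3 biological replicates (A, B and C), each on 1 Affymetrix whole genome array. The synchronized larvae of all groups were second-generation (F2) animals, and the strain was not given in the sources used here. Expression values are on the log2 scale, as the authors normalized them between arrays, so a difference of 1 is a 2-fold change.

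In flies and vertebrates a secreted Hedgehog protein is cut and lipid-modified through its own C-terminal domain and acts on cells through the membrane protein Patched. *C. elegans* lacks a clear Hedgehog or Smoothened ortholog but has many secreted relatives, the warthog, groundhog and ground-like proteins, and many membrane proteins with the sterol-sensing domain of Patched. Loss of a number of these genes disturbs molting or the cuticle, and the transcripts of many rise and fall with the larval molts.

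One array, 4 uM replicate A, differed from the rest. It correlated with the remaining 8 at a Spearman rho of 0.947 to 0.973 over the tested probe sets. The highest rho of each other array was 0.99 to 0.995. The median value of 4 uM replicate A was 5.58, against 5.45 to 5.48 on the other arrays, and the main fit did not centre the arrays further. Many differences at 4 uM are given with and without this array, but not all, and counts of separated groups are given only with it. The hypodermis and seam list (6 of 7 measured) had summed levels of 9.72 to 9.83 (log2) at 4 uM, 9.70 to 9.96 at 20 uM and 9.87 to 10.06 at 500 uM. The sperm list (31 of 31 genes measured) had summed levels of 14.84 to 15.98 at 4 uM, 14.37 to 14.78 at 20 uM and 13.47 to 14.21 at 500 uM, with the 4 uM maximum on replicate A. The yolk list (5 of 6) had 9.93 to 10.66, 8.13 to 9.14 and 7.23 to 8.48, and the oocyte and embryo list (8 of 8) 10.87 to 11.29, 10.43 to 10.50 and 10.15 to 10.49. Summed levels of all 3 reproductive lists were higher on every 4 uM array than on any other array, and their part in the member results was not tested. RNA came from whole worms, so fewer cells of a type and less RNA per cell cannot be told apart.

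Of the 78 members, 66 passed the filter on dim probe sets (9 *grd*, 23 *grl*, 9 *wrt*, 23 *ptr* and 2 *ptc* genes). The other 12, *grd-7*, *grd-9*, *grd-16*, *grl-1*, *grl-11*, *grl-18*, *grl-19*, *grl-23*, *grl-24*, *grl-30*, *wrt-7* and *ptr-22*, read 2.29 to 3.94 on all 9 arrays. None of these dim genes spanned more than 0.59 over the arrays. Without detection calls it cannot be said whether they were expressed.

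No member of these families was called as different between hemin concentrations. In limma over all 16911 probe sets, 0 of 66 members had an adjusted p under 0.05 for 4 against 20 uM hemin, where 0.911% of all probe sets were called. The counts were also 0 of 66 for 500 against 20 uM (0.242% of all called), 0 of 66 for 500 against 4 uM (2.07%) and 0 of 66 for the F-test over the 3 groups (1.62%). At an unadjusted p under 0.05 the counts were 13 members (19.7%, against 8.7% of all probe sets), 6 members (9.09%, against 6.65%) and 8 members (12.1%, against 11.9%) for the 3 contrasts in that order. Without 4 uM replicate A they were 20 of 67 members (29.9%, against 11.5% of all), 20 (29.9%, against 13.3%) and 4 (5.97%, against 10.6%), so all 3 counts moved by over 1.5 times with that array. With all 9 arrays the smallest adjusted p-values were 0.228, 0.635 and 0.176. The 95% interval of the difference lay within 2-fold in either direction for 59, 58 and 56 of the 66 members.

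**Figure D1:**
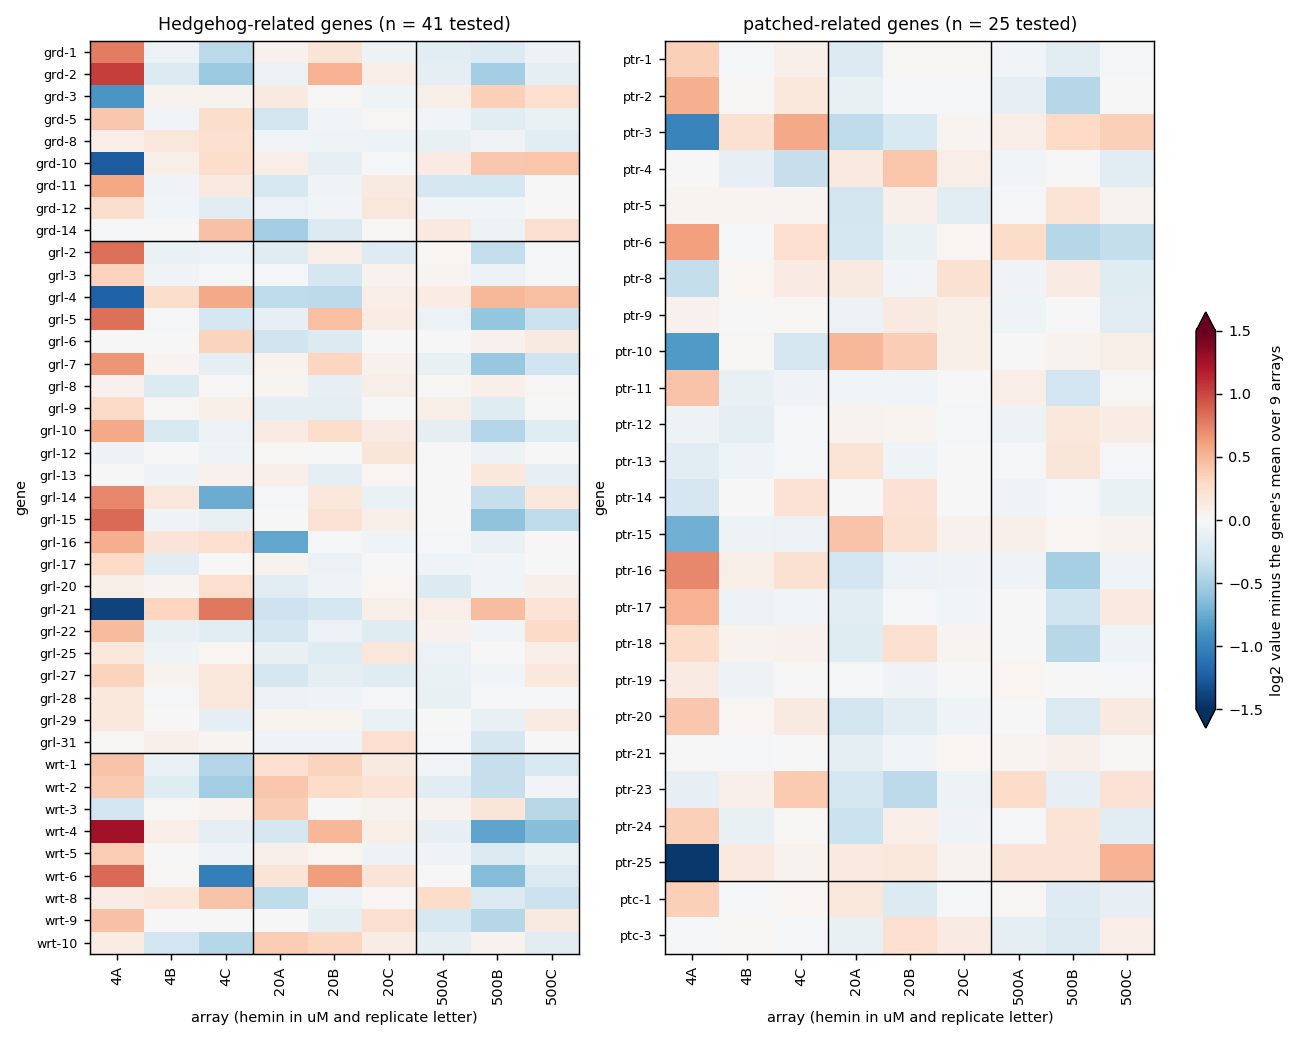
Heat map of the 66 tested members (rows) on the 9 arrays (columns, named by hemin in uM and replicate letter). Colour is the log2 value minus the gene's own mean over 9 arrays, and the strongest colours of both signs fall on 4 uM replicate A, where *ptr-25*, *grl-21*, *grl-4* and *grd-10* were low and *wrt-4* and *grd-2* high.

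Over the 66 members the median log2 difference was 0.07 for 4 against 20 uM, with 45 positive and 21 negative, beside 0.02 over all probe sets tested. Without 4 uM replicate A it was 0.01, with 36 positive and 31 negative. With all arrays it was -0.02 for 500 against 20 uM (0.01 over all) and -0.11 for 500 against 4 uM (0.00 over all). The *wrt* genes had medians of -0.21 at 4 and -0.36 at 500 against 20 uM, the *ptr* genes 0.10 and -0.02, the *grl* genes 0.08 and 0.02, and the *grd* genes 0.03 and -0.04. The medians at 4 uM without replicate A were -0.12 for *wrt*, 0.02 for *ptr*, 0.02 for *grl* and 0.12 for *grd*, each moved by over 1.5 times. In the *wrt* family 8 of 9 differences were negative at 500 uM and 5 of 9 at 4 uM, or 8 of 9 at 4 uM without replicate A. Both contrasts use the same 20 uM arrays. Most differences at 500 uM were also negative in the molting and cuticle list and in the list of other Hedgehog-related genes, given below.

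The warthog genes gave the smallest F p-value among the members. The gene *wrt-10* (ZK1290.8), which encodes a secreted warthog protein, read 10.42, 10.03 and 9.89 at 4 uM, 10.70, 10.64 and 10.43 at 20 uM, and 10.18, 10.37 and 10.16 at 500 uM (log2, replicates A, B and C). Its 20 uM arrays were the highest 3, and the 20 uM group overlapped neither of the others, although 4 uM replicate A came within the last digits of 20 uM replicate C. The difference from 20 uM was -0.48 (SE 0.14, n = 3 arrays per group, limma adjusted p = 0.228) at 4 uM and -0.36 (SE 0.14, adjusted p = 0.635) at 500 uM. Without 4 uM replicate A, *wrt-10* fell at 4 uM by 0.63 (SE 0.10, 95% interval -0.86 to -0.40, adjusted p = 0.0144, n = 2 against 3 arrays).

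The gene *wrt-2* (F52E4.6), whose promoter is widely used to mark the seam cells of the epidermis, read 10.20, 9.63 and 9.29 at 4 uM, 10.21, 10.08 and 10.01 at 20 uM, and 9.64, 9.46 and 9.77 at 500 uM. At 4 uM, replicate A matched the 20 uM arrays and replicates B and C lay below all of them, and at 500 uM every array lay below the 20 uM group. The difference at 4 uM was -0.39 (SE 0.20, adjusted p = 0.638), and without replicate A *wrt-2* fell by 0.64 (SE 0.13, 95% interval -0.92 to -0.36, adjusted p = 0.0352, n = 2 against 3). At 500 uM the difference was -0.47 (SE 0.20, adjusted p = 0.685, or 0.0998 without that array).

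Both *wrt-10* and *wrt-2* were read by 1 probe set, of the _s_at kind that can share signal with related genes. These were the 2 members called without 4 uM replicate A, of 67 then tested, beside 1.86% of all probe sets for 4 against 20 uM. In that fit 0 members were called for 500 against 20 uM (1.08% of all) and 0 for 500 against 4 uM (2.33%), and the F-test called the same 2 genes (3% of all). When 1 further array was also left out, 6 of 8 fits kept both other 4 uM arrays. In these the call of *wrt-10* was lost in 2 (adjusted p 0.0124 to 0.0656, differences -0.71 to -0.57) and that of *wrt-2* in 3 (adjusted p 0.0294 to 0.145). All of these losses fell in the fits without a 20 uM array. The fits without a 500 uM array kept both calls, but leaving out such an array cannot change a difference between 4 and 20 uM. The remaining 2 fits left 1 array at 4 uM, whose spread was assumed to be that of the other groups, and each gene lost its call in 1 of them (adjusted p = 0.180 and 0.354). With array weights on all 9 arrays, 4 of 66 members (6.06%) were called at 4 against 20 uM, beside 5.32% of all probe sets, and 1 (1.52%) at 500 against 4 uM, beside 4.81%. No member was called at 500 against 20 uM in that fit (1.21% of all), and 3 were by the F-test (6.42% of all).

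**Figure D2:**
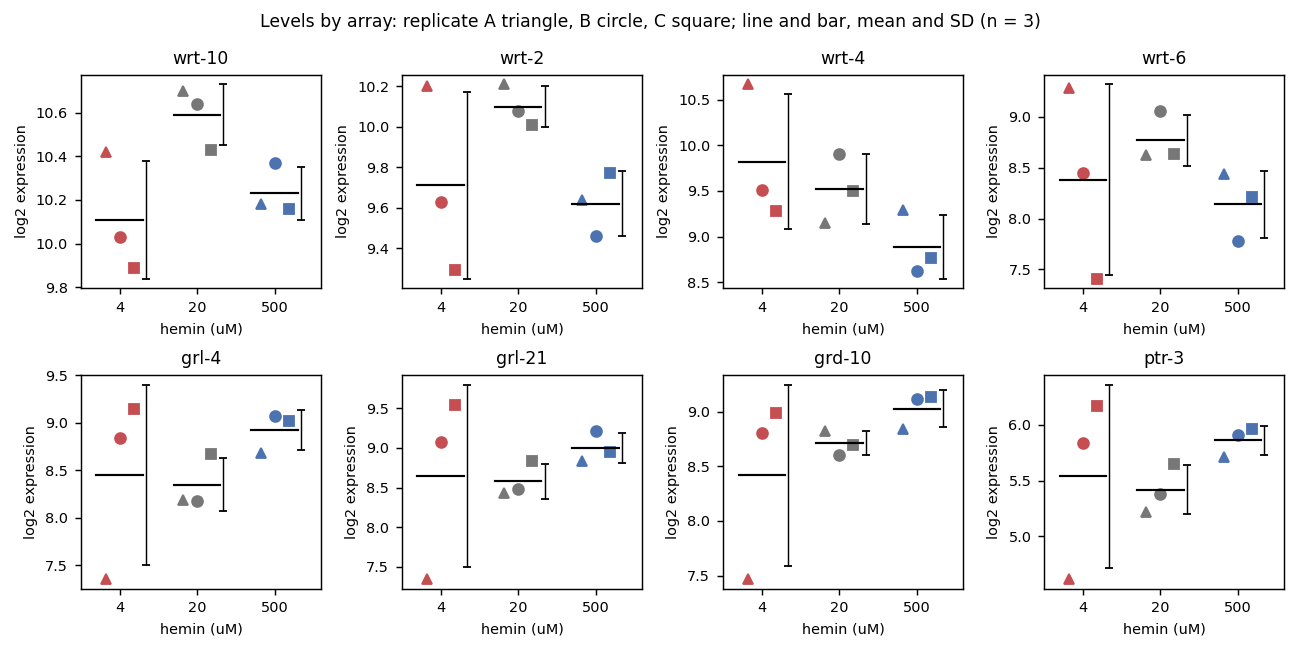
Log2 expression of 8 members by hemin concentration, with replicate A as a triangle, B as a circle and C as a square, and the mean and SD of each group (n = 3) as a line and bar. In *wrt-10* and *wrt-2* the 20 uM arrays are high, and in *grl-21*, *grl-4*, *grd-10* and *ptr-3* 4 uM replicate A is the lowest array.

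Next to *wrt-10* in the genome lies *wrt-1* (ZK1290.12), which read 9.67, 9.14 and 8.80 at 4 uM, 9.49, 9.58 and 9.38 at 20 uM, and 9.20, 8.90 and 9.01 at 500 uM. As with its neighbour, every 500 uM array lay below the 20 uM arrays, while at 4 uM replicate A was the highest of all 9. The differences were -0.28 (SE 0.19, adjusted p = 0.722) at 4 uM and -0.45 (SE 0.19, adjusted p = 0.706) at 500 uM, and without replicate A the former was -0.51 (SE 0.13, adjusted p = 0.0934).

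The widest spread in the family was that of *wrt-4* (ZK678.5), with 10.67, 9.51 and 9.28 at 4 uM, 9.15, 9.91 and 9.50 at 20 uM, and 9.29, 8.62 and 8.77 at 500 uM. The highest value was 4 uM replicate A, the lowest were 500 uM replicates B and C, and the 4 and 20 uM groups overlapped. For 500 against 4 uM the difference was -0.93 (SE 0.34, 95% interval -1.69 to -0.17, adjusted p = 0.307), the largest of all members in that contrast. Without 4 uM replicate A it was -0.51 (SE 0.23, adjusted p = 0.487). Among the remaining *wrt* genes, *wrt-8* (C29F3.2) was higher on every 4 uM array than on the 20 uM arrays, by 0.38 (SE 0.17, adjusted p = 0.586). The differences of *wrt-3*, *wrt-5* and *wrt-9* from 20 uM lay between -0.21 and 0.12 in both contrasts.

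Of the ground-like genes, which encode secreted proteins with a domain like that of the groundhogs, 20 of 23 had positive differences at 4 against 20 uM, and 14 of 23 without replicate A. The gene *grl-16* (Y65B4BR.6) read 10.71, 10.36 and 10.41 at 4 uM, 9.38, 10.14 and 10.10 at 20 uM, and 10.14, 10.06 and 10.15 at 500 uM. All 4 uM arrays exceeded all others, but 20 uM replicate A was far below its own group. The difference at 4 against 20 uM was 0.62 (SE 0.18, 95% interval 0.20 to 1.03, adjusted p = 0.262), the largest positive one of all members. Without 20 uM replicate A it was 0.37 (adjusted p = 0.555). For *grl-27* (F40C5.3) the values were 6.75, 6.47 and 6.59 at 4 uM, 6.17, 6.28 and 6.24 at 20 uM, and 6.32, 6.38 and 6.58 at 500 uM. Every 4 uM array again lay above the 20 uM arrays, with a difference of 0.38 (SE 0.11, adjusted p = 0.228).

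Both ground-like genes kept their sign without 4 uM replicate A, at 0.51 (adjusted p = 0.308) and 0.30 (adjusted p = 0.235). The difference of *grl-6* (K10C2.5) at 4 against 20 uM was 0.27 (SE 0.12, adjusted p = 0.573), and 0.33 without that array. At 500 uM *grl-7* (T02E9.2) and *grl-15* (Y75B8A.20) lay below 20 uM on every array. Their differences were -0.47 (SE 0.20, adjusted p = 0.709) and -0.44 (SE 0.24, adjusted p = 0.821). In *grl-15* the closest arrays were nearly tied, at 9.67 for 500 uM replicate A and 9.68 for 20 uM replicate A. The second probe set of *grl-7* gave -0.35 for the same contrast, and there the 2 groups overlapped.

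Among the groundhog genes, *grd-8* (C37C3.4) read 5.56, 5.62 and 5.70 at 4 uM, 5.42, 5.39 and 5.38 at 20 uM, and 5.35, 5.40 and 5.28 at 500 uM. The 4 uM arrays were the highest 3, and the spread within each group was small. Its difference was 0.23 (SE 0.08, adjusted p = 0.399) against 20 uM and -0.28 (SE 0.08, adjusted p = 0.176) for 500 against 4 uM, the latter the smallest adjusted p of any member in any contrast. For 4 against 20 uM the differences of *grd-5* (F41E6.2), *grd-14* (T01B10.2) and *grd-11* (K02E2.2) were 0.31 (SE 0.12), 0.38 (SE 0.16) and 0.28 (SE 0.16), with adjusted p-values of 0.479, 0.550 and 0.694. Without 4 uM replicate A these differences were 0.21, 0.46 and 0.10.

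On the receptor side, *ptc-1* (ZK675.1), a Patched homolog known for its role in germline cytokinesis, read 8.69, 8.31 and 8.37 at 4 uM, 8.51, 8.13 and 8.31 at 20 uM, and 8.36, 8.14 and 8.21 at 500 uM. For *ptc-3* (Y110A2AL.8), the other measured Patched homolog, the values were 8.54, 8.58 and 8.53 at 4 uM, 8.45, 8.81 and 8.68 at 20 uM, and 8.42, 8.34 and 8.66 at 500 uM. In both genes the 3 groups overlapped. The differences from 20 uM lay between -0.17 and 0.14, and all 95% intervals of these 4 differences lay between -0.43 and 0.44.

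Patched-related genes held the largest negative difference at 4 against 20 uM. The gene *ptr-10* (F55F8.1), whose promoter is used to mark glia, read 5.90, 6.77 and 6.50 at 4 uM, 7.25, 7.12 and 6.84 at 20 uM, and 6.75, 6.81 and 6.84 at 500 uM. All 4 and 500 uM arrays lay below the 20 uM arrays, though replicates C at 500 and 20 uM read alike to 2 decimals, and 4 uM replicate A was lowest. The difference at 4 uM was -0.68 (SE 0.20, 95% interval -1.12 to -0.24, adjusted p = 0.240), and -0.43 (SE 0.13, adjusted p = 0.178) without replicate A. The gene *ptr-15* (T07H8.6) read 6.09, 6.73 and 6.72 at 4 uM, 7.24, 7.03 and 6.87 at 20 uM, and 6.88, 6.84 and 6.86 at 500 uM. It had the same order of groups, with a difference of -0.53 (SE 0.17, adjusted p = 0.308) at 4 uM and -0.32 without that array.

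The gene *ptr-4* (C45B2.7), which is needed for the apical extracellular matrix, read 8.36, 8.23 and 8.01 at 4 uM, 8.51, 8.77 and 8.46 at 20 uM, and 8.32, 8.36 and 8.20 at 500 uM. Its 20 uM arrays were the highest 3 of 9, with a difference of -0.37 (SE 0.12, adjusted p = 0.307) at 4 uM and -0.28 (SE 0.12, adjusted p = 0.706) at 500 uM. The second probe set of *ptr-4* differed by -0.22 and -0.25. In the opposite direction, *ptr-16* (T21H3.2) read 6.83, 6.20 and 6.34 at 4 uM, 5.82, 6.02 and 6.06 at 20 uM, and 6.06, 5.61 and 6.04 at 500 uM. Each 4 uM array exceeded the arrays of both other groups, by 0.49 (SE 0.18, adjusted p = 0.416) on average over 20 uM. The gene *ptr-2* (C32E8.8) was likewise highest at 4 uM, by 0.28 (SE 0.15, adjusted p = 0.668) over 20 uM and with a difference of -0.41 (SE 0.15, adjusted p = 0.304) for 500 against 4 uM. Without 4 uM replicate A the difference at 4 against 20 uM was 0.30 for *ptr-16* and 0.13 for *ptr-2*. That of *ptr-2* for 500 against 4 uM was then -0.26.

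Several genes had more than 1 probe set, and these did not always move alike. For *ptr-23*, named after its values were seen, the 4 probe sets differed by 0.04 to 0.36 at 4 uM and by 0.17 to 0.38 at 500 uM, all positive. For *ptr-2* a dimmer probe set gave 0.29 at 500 uM, against -0.13 for the brightest. For *grd-1* the dimmer probe set gave -0.31 at 4 uM, against 0.03.

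**Figure D3:**
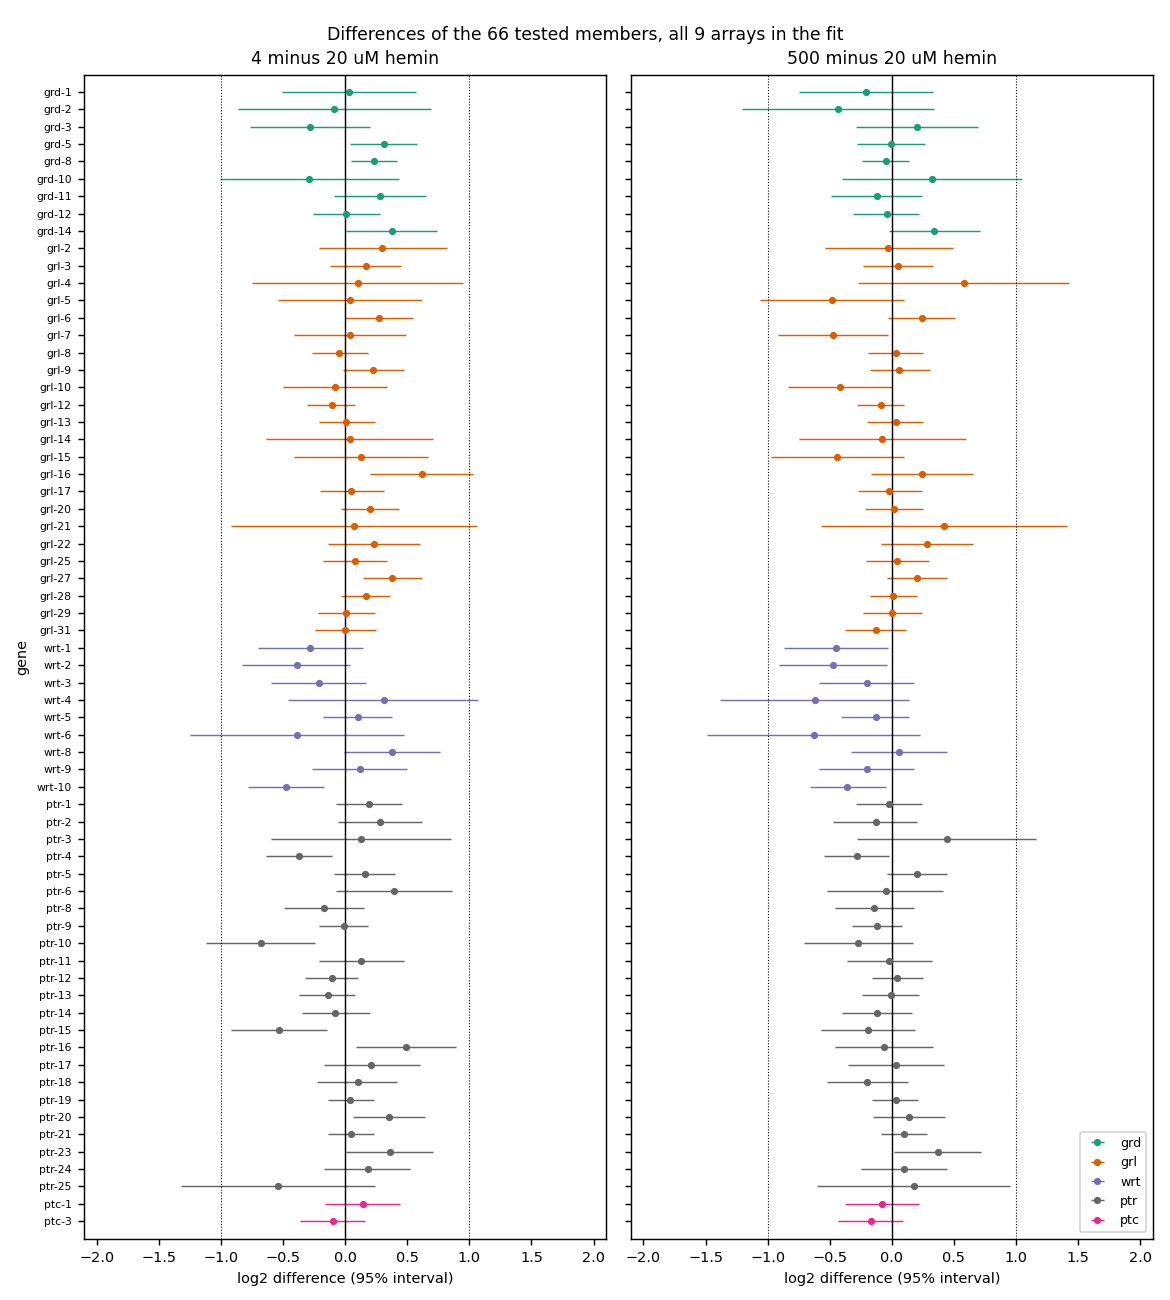
Log2 differences of the 66 tested members with 95% intervals, for 4 minus 20 uM (left) and 500 minus 20 uM hemin (right), coloured by family, with dotted lines at a 2-fold change. The points lie between -0.68 and 0.62, and both panels share the 20 uM arrays.

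Complete separation of the groups, without regard to its size, was seen for 15 of 66 members at 4 against 20 uM (22.7%, against 13.4% of all probe sets), 10 higher and 5 lower. For 500 against 20 uM it was seen for 19 (28.8%, against 16.8%), 8 higher and 11 lower. For 500 against 4 uM 12 members were separated (18.2%, against 14.6%), 4 higher and 8 lower. The members separated from 20 uM at 4 uM included *grl-9*, *grl-28* and *ptr-20*, all higher, and *ptr-12*, lower. Those separated at 500 uM included *grl-22*, higher, and *grl-10* and *ptr-14*, lower. These 7 were named after their values were seen.

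The 4 uM arrays differed more among themselves than those of the other groups. The median SD of the 66 members was 0.24 among the 4 uM arrays (0.16 over all probe sets tested), against 0.14 at 20 uM (0.10) and 0.14 at 500 uM (0.12). Between 4 uM replicates B and C alone it was 0.09 (0.07). Replicate A was the highest of 9 arrays for 34 members, which is 51.5% (34.2% of all probe sets), and the lowest for 12, or 18.2% (21.2% of all).

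On replicate A the members parted into opposite directions. It lay at least 1 below the mean of 4 uM replicates B and C in 5 of 66 members (7.58%, against 1.44% of all probe sets) and at least 1 above it in another 5 (7.58%, against 2.59%). These genes were chosen after their values were seen. The low ones were *grl-21* (deviation -1.96), *grl-4* (-1.63), *ptr-25* (-1.56), *grd-10* (-1.43) and *ptr-3* (-1.38), and the high ones *grd-2* (1.42), *wrt-6* (1.35), *wrt-4* (1.27), *grd-1* (1.01) and *grl-14* (1.00). Closest to these limits without reaching them were *grd-3* (-0.94), *grl-5* (0.96) and *grl-15* (0.93). The second probe set of *grd-1* deviated by 0.23.

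The gene *grl-21* (ZC168.5), whose product has been described as a Hedgehog-like signal in lipid metabolism, read 7.35, 9.07 and 9.54 at 4 uM, 8.43, 8.48 and 8.83 at 20 uM, and 8.84, 9.21 and 8.95 at 500 uM. For *grl-4* (F42C5.7) the values were 7.36, 8.84 and 9.14 at 4 uM, 8.19, 8.18 and 8.67 at 20 uM, and 8.68, 9.07 and 9.02 at 500 uM. In both genes 4 uM replicate A was lowest, 4 uM replicate C highest, and every 500 uM array above every 20 uM array. The closest values of these 2 groups were nearly tied, 8.84 against 8.83 in *grl-21* and 8.68 against 8.67 in *grl-4*. The warthog gene *wrt-6* (ZK377.1) read 9.28, 8.45 and 7.41 at 4 uM, 8.62, 9.06 and 8.63 at 20 uM, and 8.44, 7.78 and 8.21 at 500 uM. Here 4 uM replicate A was highest, replicate C lowest, and every 500 uM array below the 20 uM arrays.

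In *grd-10* (F09D12.1), whose promoter marks seam cells, the values were 7.47, 8.81 and 8.99 at 4 uM, 8.82, 8.60 and 8.70 at 20 uM, and 8.84, 9.12 and 9.14 at 500 uM. Its genomic neighbour *grd-3* (W05E7.1) read 9.18, 10.11 and 10.11 at 4 uM, 10.19, 10.08 and 9.99 at 20 uM, and 10.14, 10.42 and 10.30 at 500 uM. Both had their lowest value on 4 uM replicate A, and their other 8 arrays spanned 0.54 and 0.43. For *ptr-25* (F43D9.1) these 8 arrays spanned 0.47, against 1.98 with replicate A. All 5 neighbouring pairs of members belong to 1 family each, the others being *grl-9* with *grl-8*, *grl-29* with *grl-30* and *grl-30* with *grl-31*.

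Over the 66 members, the deviation of 4 uM replicate A and the difference between 500 and 20 uM hemin, in which no 4 uM array enters, had opposite signs in 40 (60.6%), close to the 59.0% of all probe sets. All 5 members at least 1 below were higher at 500 than at 20 uM, by 0.18 to 0.58 (log2), as were 76.5% of the 243 such probe sets among all tested. All 5 members at least 1 above were lower at 500 uM, with differences of -0.63 to -0.08, as were 95.2% of 438. Across members the 2 measures had a Pearson r of -0.67, beside -0.40 over all 16911 probe sets. The members share the same arrays and normalization, so r is a description. None of these differences between 500 and 20 uM was called.

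**Figure D4:**
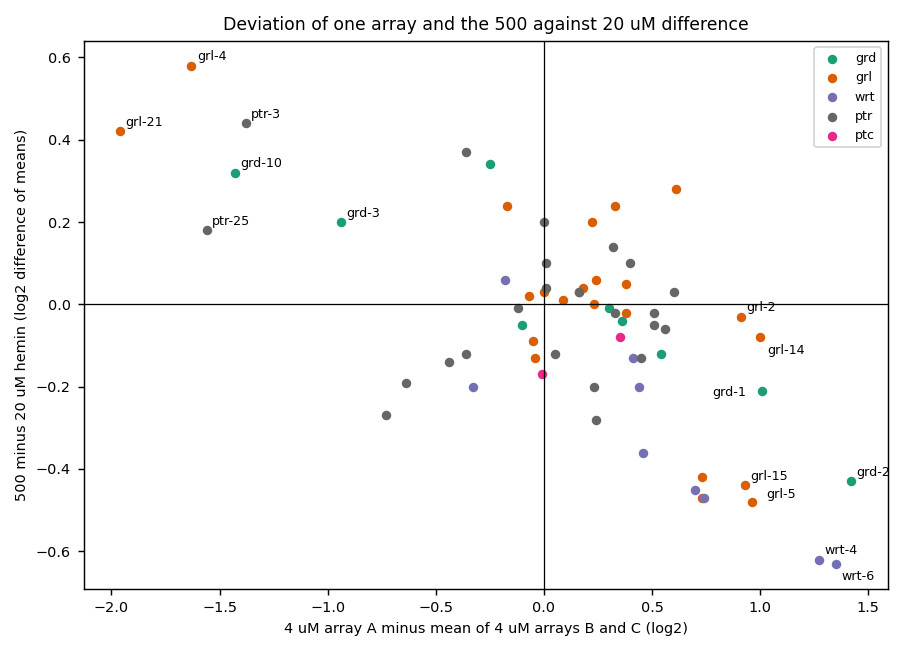
Each point is 1 of 66 tested members, coloured by family: the horizontal axis is 4 uM replicate A minus the mean of 4 uM B and C, and the vertical axis the difference 500 minus 20 uM hemin (both log2). The 5 members at or below -1, such as *grl-21* and *grl-4*, lie above 0 and the 5 at or above 1, such as *wrt-4* and *wrt-6*, below, while between these limits *ptr-10* (-0.73) and *ptr-15* (-0.64) are low on both axes.

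The median deviation of the *wrt* genes from their own means was 0.39 on 4 uM replicate A, 0.01 on B and -0.13 on C. At 20 uM it was 0.19, 0.27 and 0.12, and at 500 uM -0.06, -0.34 and -0.22, so all 20 uM arrays exceeded all 500 uM arrays. That of the *ptr* genes stayed between -0.12 and 0.04 on every array. For the molting and cuticle list described next it was 0.28, -0.08 and -0.23 at 4 uM, 0.14, 0.10 and 0.08 at 20 uM and -0.06, -0.21 and -0.02 at 500 uM.

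Leaving out 4 uM replicate A moved the differences at 4 against 20 uM most for the genes named above. This follows from their choice by the deviation of that array and is no separate result. The difference of *grl-21* went from 0.07 to 0.72 (adjusted p = 0.0777), of *grl-4* from 0.10 to 0.64 (adjusted p = 0.136), of *ptr-3* from 0.13 to 0.59 (adjusted p = 0.0961) and of *wrt-6* from -0.39 to -0.84 (adjusted p = 0.240). That of *grd-10* turned from -0.29 to 0.19 and that of *wrt-4* from 0.31 to -0.12, with adjusted p = 0.657 and 0.954. The 95% interval lay within 2-fold for 64 of 67 members in that fit.

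**Figure D5:**
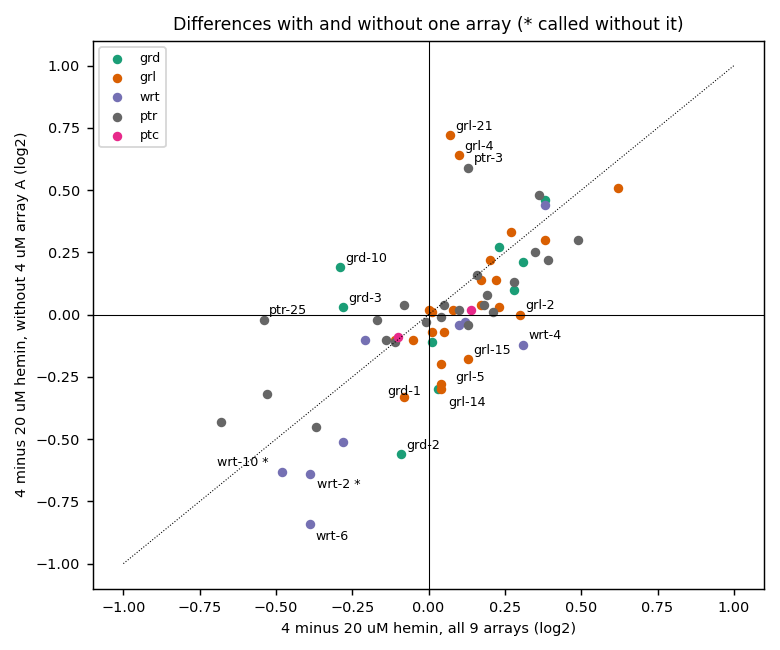
Log2 difference of 4 minus 20 uM hemin with all 9 arrays (horizontal) and without 4 uM replicate A (vertical), 1 point per member tested in both, coloured by family, with the dotted line marking equal values. The called genes *wrt-10* and *wrt-2* are starred, and *grl-21*, *grl-4* and *ptr-3* lie highest.

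In the list of molting and cuticle genes (39 of 40 measured and tested) 0 were called in any of the 3 contrasts. At 4 against 20 uM 31 of 39 differences were negative, with a median of -0.12. The lowest F p-values belonged to the cuticle collagen gene *dpy-2*, the apical matrix gene *let-653* and *pan-1*, with differences of -0.43 (adjusted p = 0.154), -0.39 (adjusted p = 0.199) and -0.26 (adjusted p = 0.280) at 4 uM. Without replicate A the median was -0.29 and 1 gene, the furrow collagen gene *dpy-7*, fell by 0.52 (adjusted p = 0.0258). At 500 against 20 uM 34 of 39 differences were negative, with a median of -0.20. These 2 groups were separated for 19 of the 39 genes (48.7%, against 16.8% of all probe sets), 3 higher and 16 lower.

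The list of other Hedgehog-related and sterol-sensing-domain genes with the Gli homolog *tra-1* had 9 of 10 measured, and 0 were called in any contrast. At 500 against 20 uM 8 of 9 differences were negative, with a median of -0.25. The quahog gene *qua-1*, which encodes a Hedgehog-related protein needed for molting, read 8.88, 8.29 and 8.04 at 4 uM, 8.54, 8.49 and 8.42 at 20 uM, and 8.31, 7.59 and 7.93 at 500 uM. Every 500 uM array lay below the 20 uM arrays, with a difference of -0.54 (SE 0.22, adjusted p = 0.679). The Niemann-Pick C1 homologs *ncr-1* and *ncr-2* differed by 0.04 and -0.45 in that contrast (adjusted p = 0.991 and 0.823). The gene *tra-1* differed by 0.07 (SE 0.11) at 4 and by -0.06 (SE 0.11) at 500 against 20 uM.

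Cuticle collagens held calls: 7 of 123 tested *col* genes rose at 4 against 20 uM and 13 fell at 500 against 4 uM, where 0.911% and 2.07% of all probe sets were called. Without 4 uM replicate A these counts were 13 and 15, where 1.86% and 2.33% of all probe sets were called. With all arrays *col-8* rose by 0.98 (SE 0.14, adjusted p = 0.0101), *col-19*, known as an adult-stage collagen, by 2.28 (SE 0.32, adjusted p = 0.00874) and *col-122* by 1.81 (SE 0.33, adjusted p = 0.0350) at 4 uM. Of a list of 4 adult-onset collagens only *col-19* and *col-63* were measured. The difference of *col-63* at 4 uM was -0.25 (SE 0.50, adjusted p = 0.92), and -0.80 without 4 uM replicate A. Whether members and collagens differ in their share of calls was not tested.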

How the data were processed

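The deposited table held 1 log2 value per probe set and array, which the authors had already normalized; MAS5 and RMA are both listed, with no version, in the submitters' processing notes. Values lay between 2.02 and 14.37, the form of RMA values, but the sources used here do not say which method made the table. Such summarisation can compress differences among dim probe sets. Detection calls and scan dates were not used here, and 0 columns belonged to other samples.

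From 22625 probe sets 77 array controls were left out, then the dimmest 25% by mean over all arrays, which left 16911. In limma (version 3.58.1, under R 4.3.3) each hemin group had its own mean over the 9 arrays, leaving 6 residual degrees of freedom, and the prior variance could vary with the mean level. Two-sided p-values were adjusted by Benjamini-Hochberg over all tested probe sets, and a gene was called at an adjusted p under 0.05. Errors of differences are limma standard errors, and 95% intervals are not adjusted. The step was tested on simulated data, with independent noise of the same SD on every array for each probe set. That test therefore did not cover an outlying array such as 4 uM replicate A.

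Members came from the platform's annotation; all 78 genes matched a current gene table (assembly WBcel235, used for names and neighbours) and 0 symbols changed. Of their probe sets 24 were of the _s_at and 2 of the _x_at kind, which can share signal with related genes. Named members were those called, up to 5 per family with the smallest F p, *ptc-1* and *ptc-3*; others were named after their values were seen. The members and lists were chosen with earlier results of these data known. Alternatives were quantile normalization, centring, other filters and variance priors, a replicate block, array weights, 6 arrays per contrast, the mean of a gene's probe sets, and leaving out each array. The sample labels do not say whether replicate letters pair the arrays, and the main fit treated the arrays as unpaired. Other software was Python 3.11.15, pandas 2.3.3 and, for plots, matplotlib 3.10.9.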

Additional observations from a re-analysis of the deposited data

How the results depend on the processing

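The counts of called members stayed at 0 in every contrast under quantile normalization, centring, no filter, a filter on the dimmest 50%, both other variance priors, the fit of 6 arrays and the mean of a gene's probe sets. They also stayed at 0 without any single array other than 4 uM replicate A. With array weights, which gave 4 uM replicate A a weight of 0.148, 1 member was higher and 3 were lower at 4 against 20 uM, 1 was lower at 500 against 4 uM and 3 passed the F-test, beside 899 and 813 of 16911 probe sets in the 2 contrasts. These were *grd-8* higher, and *wrt-10*, *wrt-2* and *ptr-4* lower (adjusted p = 0.0428, 0.00384, 0.0188 and 0.0474), and *grd-8* at 500 uM (0.0390). Leaving out arrays singly, 0 to 2 members were called lower at 4 against 20 uM and 0 to 2 by the F-test. The 2 came each time from the fit without 4 uM replicate A, where 1.86% and 3% of all probe sets were called. Fits without 4 uM replicate A and 1 further array were added after seeing the data, and 6 of them kept 2 arrays at 4 uM. These 6 gave 0 to 2 lower at 4 against 20 uM, 0 to 1 lower at 500 against 20 uM (*grl-15*) and 0 to 2 by the F-test. Shares over all probe sets are not given for these fits, so their counts cannot be set against an overall rate. With each array centred on its median, the median member difference for 500 against 4 uM was -0.074 (-0.108 in the main fit). For 4 against 20 uM it was then 0.029 (0.075 in the main fit). The median member difference for 4 against 20 uM was 0.014 to 0.134 over the fits without 1 array, the lowest without 4 uM replicate A. It was -0.003 with array weights. In the added fits it came to -0.009 also without 20 uM replicate A and -0.007 also without 20 uM replicate B, and for 500 against 4 uM to -0.019 also without 500 uM replicate B; the cause was not tested.

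Replicate letters correlated between groups by -0.15 to 0.29 in their deviations, and 4 of 9 arrays correlated best with their own letter. With the replicate block 0 members were called, and over all probe sets 148, 31 and 321 were called for 4 against 20, 500 against 20 and 500 against 4 uM. Of 1248 values of the 66 named differences under the alternatives chosen at the outset, 1241 stayed above the threshold. Among 1776 values under all alternatives 88 uncalled ones had the other sign, and 0 called ones.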
